A study of Homo sapiens with 10 samples.

Results

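Interferon-stimulated genes are the genes that cells switch on after interferon binds its receptor, and 55 of them, named in a list, are described here in spheroids labelled as T47D, a line derived from a human breast cancer. The list was matched by gene symbol to a count table of 13920 genes, and 44 of the 55 were in it. The other 11 (IFI44, XAF1, OAS1, OAS2, OASL, DHX58, SP100, PSMB8, RSAD2, RTP4 and SAMD9L) were absent from the table, from which the study had removed genes with a count of 0 in any library, and they were not analysed here. Spheroids were grown for 4 days from wild-type (WT) cells or from the SAMHD1 knock-out (KO) clones A1 and A2, each a single edited clone, and no treatment with interferon is named in the labels. Experiments 10, 11, 15 and 16 each gave a library of WT and of clone A1, and the last 2 also gave one of clone A2, making 10 libraries. Comparisons were therefore made within experiments 10 and 11 (WT and clone A1) and within experiments 15 and 16 (WT, clone A1 and clone A2), with 2 libraries in each group.

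Type I interferons bind a receptor whose kinases, JAK1 and TYK2, activate STAT proteins. STAT2 and IRF9 are part of the complex that binds the interferon-stimulated response element in the promoters of its target genes, and the products of those genes degrade viral RNA, block viral entry and release, or feed back on the pathway. SAMHD1 breaks down deoxynucleotides, and inherited loss of its function causes Aicardi-Goutières syndrome, in which interferon-stimulated genes are chronically raised. The comparisons address the question of whether these genes differ between SAMHD1-KO and WT spheroids.

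The response element was searched in the promoters as the letters GAAA, any 2 bases and GAAA again, on both strands, in windows from 250 bases before to 50 bases after each gene's start in RefSeq (GRCh38.p14). Of the 55 genes, 45 had a promoter entry, and 30 of these (66.7%) held the letters, against 4.38% of the 27305 genes with a promoter in the same table. Among the members of the count table the share was 26 of 37 (70.3%), against 3.94% of all genes of the count table with a promoter. The letters of a gamma-activated site, TTCNNNGAA, were in the promoters of 14 of 45 members (31.1%) and of 9.38% of all genes. The member promoters held the response element letters at 50 distinct sites counted per gene, of which 6 overlapped a gamma-activated site match. DTX3L and PARP9 share a site, read on opposite strands, and it is counted for each. RIGI, STAT2, IRF1, IRF9, HERC6, UBE2L6 and TRIM25 were among the members without the response element letters in this window, and USP18, GBP2, PML, IRF7, IFIT2, IFITM2 and ZNFX1 had no entry. The windows below are of members that differed between groups and of 3 classical readouts of the pathway, each 40 bases from 5′ to 3′ on the gene's strand with the letters of the match it is centred on, or their reverse complement, in capitals. A match is a description of the letters and does not show that a factor binds there.
OAS3 (chr12:112938316-112938355, plus strand, match from -143): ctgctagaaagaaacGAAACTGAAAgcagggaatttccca
OAS3 (chr12:112938447-112938486, plus strand, match from -12): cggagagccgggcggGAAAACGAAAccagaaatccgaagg
BST2 (chr19:17405736-17405775, minus strand, match from -130): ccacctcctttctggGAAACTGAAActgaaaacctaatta
IFITM1 (chr11:314019-314058, plus strand, match from -6): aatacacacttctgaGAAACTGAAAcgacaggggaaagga
IFIT5 (chr10:89414508-89414547, plus strand, match from -45): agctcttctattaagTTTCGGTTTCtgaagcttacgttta
TRIM14 (chr9:98119224-98119263, minus strand, match from -26): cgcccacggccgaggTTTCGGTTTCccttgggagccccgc
ISG15 (chr1:1013375-1013414, plus strand, match from -107): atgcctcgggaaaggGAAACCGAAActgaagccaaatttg
IFIT1 (chr10:89392505-89392544, plus strand, match from -103): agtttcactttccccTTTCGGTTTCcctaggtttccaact
IFI6 (chr1:27672283-27672322, minus strand, match from -115): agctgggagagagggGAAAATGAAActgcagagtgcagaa
Match positions are those of the first base of the match on the gene's strand, counted from the gene's start, with -1 the base before it. The OAS3 promoter held 2 separate matches. That of BST2 held a second, overlapping match from -124 and that of ISG15 one from -113, and that of IFIT1 held a separate second match from -116. These 3 lie within the printed windows, that of IFIT1 in lower case and those of BST2 and ISG15 partly in the capitals. The IFITM1 promoter held a second match from -40, that of IFI6 held 2 more, from -156 and -93, and that of IFIT5 held 3 in all.

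Total counts ranged from 40077369 to 51311482 per library. SAMHD1 itself stood at 53.9, 55.7, 49.8 and 56.4 CPM (read counts per 1e6 counts of the library, scaled with TMM factors that correct for differences in library composition) in WT of experiments 10, 11, 15 and 16. It stood at 22.5 and 23.0 CPM in clone A1 of experiments 10 and 11, at 6.44 and 6.15 CPM in clone A1 of experiments 15 and 16 and at 23.6 and 20.2 CPM in clone A2, so it was below WT in all 6 KO libraries and lowest in clone A1 of experiments 15 and 16. Its log2 fold change was -1.27 in clone A1 of experiments 10 and 11 (adjusted p = 6.59e-07), -3.08 in clone A1 of experiments 15 and 16 (1.34e-11) and -1.28 in clone A2 (2.2e-07), and the clone A1 effect differed between the experiment pairs by -1.81 (1.2e-06). Of the markers of luminal mammary epithelium, KRT19, SPDEF, TFF1 and TFF3 were absent from the table, and EPCAM, CDH1 and ESR1 did not exceed 1.78, 2.16 and 1.59 CPM in any library, which goes against the luminal origin of the labelled cell line. PGR, GATA3, FOXA1, XBP1 and KRT18 were each above 14 CPM in all libraries. Of the 9 luminal markers in the table, 3 (33.3%) were called in each clone in experiments 15 and 16, beside 8.24% of all genes in clone A1 and 16.4% in clone A2, and their summed level was 165 to 176 CPM in WT, 154 to 172 CPM in clone A1 and 146 and 147 CPM in clone A2. FOXA1 rose by 0.47 and 0.32 on the log2 scale in clones A1 and A2 (adjusted p = 0.00363 and 0.0217), KRT8 fell by 0.70 and 0.97 (adjusted p = 0.0179 and 0.00104), and XBP1 rose by 0.28 in clone A1 (adjusted p = 0.0340) and fell by 0.28 in clone A2 (adjusted p = 0.0245). In clone A1 of experiments 10 and 11 KRT8 alone was called, at -0.94 (adjusted p = 0.0282). Leukocyte markers were summed at 2.70 to 3.91 CPM with 12 of 16 absent, PTPRC, CD3E and LYZ among them, and markers of plasmacytoid dendritic cells at 32.9 to 44.5 CPM with 4 of 6 absent, LILRA4 and CLEC4C among them. Fibroblast markers, with 5 of 8 absent, were summed at 25.5 to 28.9 CPM in WT and 18.8 to 22.9 CPM in KO libraries. Mitochondrial genes held 7.79% to 8.48% of counts in the libraries of experiments 10 and 11. In experiments 15 and 16 they held 10.7% and 9.92% in WT, 13.9% and 10.7% in clone A1 and 10.04% and 9.05% in clone A2. The sum for plasmacytoid dendritic cells was mostly TCF4 (30.95 to 40.04 CPM over the 10 libraries). Its other gene, IRF8, stood at 4.36 and 4.02 CPM in WT of experiments 15 and 16 and at 1.21 to 2.00 CPM in the 4 KO libraries of those experiments, and it fell by 1.46 and 1.20 on the log2 scale in clones A1 and A2 (adjusted p = 5.49e-04 and 8.90e-04), with -0.10 in experiments 10 and 11. COL3A1, of the fibroblast markers, stood at 9.75 and 8.46 CPM in the same WT libraries, 2.76 and 2.98 CPM in clone A1 and 1.66 and 2.38 CPM in clone A2, and fell by 1.66 and 2.16 (adjusted p = 6.80e-06 and 3.60e-07), with -0.42 in experiments 10 and 11 (adjusted p = 0.320). The other fibroblast markers in the table, COL1A1 and PDGFRA, were not called in either clone, at -0.10 and 0.20 in clone A1 and 0.00 and -0.10 in clone A2 of experiments 15 and 16. The part of these markers, the marker sums and the mitochondrial share in the results was not tested. The spheroids were grown from a single labelled line, so the levels of these markers are given as RNA and not as numbers of cells of a type.

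Compared per kilobase of transcript, the 44 members spanned a wide range of levels. LGALS3BP, a secreted glycoprotein, stood first at 123 CPM per kilobase, followed by IFITM2, a membrane protein that hinders viral entry, at 22.0, TRIM25, a ubiquitin ligase that activates RIG-I, at 13.9 and EIF2AK2, the kinase PKR that senses double-stranded RNA, at 13.5. The ubiquitin-like modifier ISG15 stood at 8.54 CPM per kilobase. The classical antiviral effectors IFIT1 and MX1 stood at 0.75 and 0.31, and EPSTI1 was last at 0.18. LGALS3BP and IFITM2 stood clear of the next gene in every library, while each neighbouring pair from TRIM25 down to IFI6 in this order overlapped in its range over the libraries. On the CPM scale, 16 members averaged at least 10 CPM, 21 averaged 1 to 10 CPM and 7 averaged under 1 CPM. The highest library exceeded the lowest by 1.20-fold for TRIM25 and by 7.47-fold for GBP2, and by over 3-fold for 8 members.

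**Figure D1:**
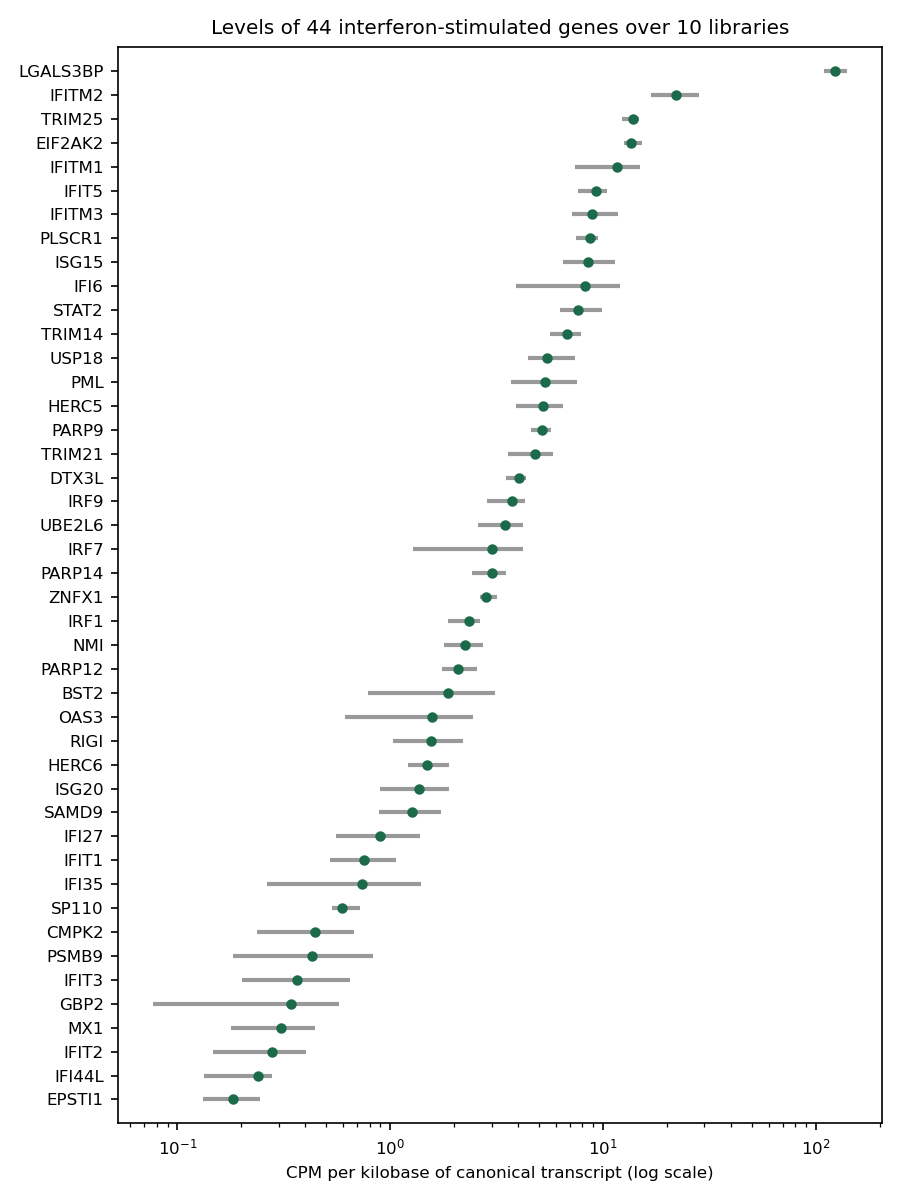
Level of each of the 44 interferon-stimulated genes in the count table, in CPM per kilobase of the canonical transcript on a log axis. Points are means over the 10 libraries and bars span the lowest to the highest library. LGALS3BP stands at 123 and EPSTI1 at 0.18, and the bar of GBP2 is the longest.

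In experiments 15 and 16, 6 of 44 members passed the test in clone A1 against WT, and 6 did so in clone A2. OAS3 rose and BST2 and PML fell in both clones. USP18 rose and IFITM1 and TRIM14 fell in clone A1, while RIGI rose and GBP2 and IFIT5 fell in clone A2. The 2 comparisons share their WT libraries, so their values are given side by side. Each gene was tested with the quasi-likelihood test of edgeR in 1 fit of all 10 libraries, and a gene was called where the p-value adjusted over 13920 genes was under 0.05. The 6 members called in clone A1 were 13.6% of those tested, beside 8.24% of all genes, with 2 higher (3.95% of all genes) and 4 lower (4.29%). In clone A2 the 6 members were again 13.6%, beside 16.4% of all genes, with 2 higher (7.33% of all genes) and 4 lower (9.07%). The median log2 fold change over the 44 members was -0.02 in clone A1 and -0.04 in clone A2, beside 0.003 and 0.007 over all genes, and with scaling by total counts the values in clone A2 were 0.0087 and 0.058. DESeq2 and limma-trend called the same 6 members in each comparison. In clone A1 only OAS3 was called without WT of experiment 15, WT of experiment 16 or clone A1 of experiment 16, and OAS3 and IFITM1 were called without clone A1 of experiment 15. In clone A2 there were 3 calls without WT of experiment 15, WT of experiment 16 or clone A2 of experiment 15 and 4 without clone A2 of experiment 16.

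OAS3 makes the short oligoadenylates that activate RNase L, which cuts viral and cellular RNA. Its level was 7.71 and 8.36 CPM in WT of experiments 15 and 16, 14.96 and 16.2 CPM in clone A1, and 15.3 and 15.6 CPM in clone A2. All 4 KO libraries thus lay above both WT libraries. The gene lies at chr12:112938474-112973251 (GRCh38). The log2 fold change was 0.95 ± 0.14 (SE, n = 2 against 2, adjusted p = 7.16e-04) in clone A1 and 0.94 ± 0.14 (adjusted p = 3.39e-04) in clone A2, or 1.93-fold and 1.92-fold. These calls held under all 12 alternatives for each clone, including those that left out 1 library. OAS3 was the only member of the OAS family in the table, since OAS1, OAS2 and OASL were absent.

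BST2 (chr19:17402939-17405630), or tetherin, holds budding virus particles on the cell surface. It was at 2.42 and 2.03 CPM in WT, 1.30 and 1.06 CPM in clone A1, and 0.785 and 1.15 CPM in clone A2, with both WT libraries above all KO libraries. The log2 fold change was -0.91 ± 0.24 (adjusted p = 0.0289) in clone A1 and -1.18 ± 0.25 (adjusted p = 0.00334) in clone A2. The call in clone A1 was lost on leaving out any 1 of its 4 libraries, with log2 fold changes of -1.07 to -0.77 over the alternatives, and the call in clone A2 was lost without the clone A2 library of experiment 15 (adjusted p = 0.0546). IFITM1, a membrane protein that hinders fusion of viruses with the cell, was at 7.54 and 7.47 CPM in WT, 5.96 and 4.91 CPM in clone A1, and 6.50 and 6.23 CPM in clone A2. All KO libraries were below WT. It fell by 0.46 ± 0.12 on the log2 scale in clone A1 (adjusted p = 0.0293), and the value in clone A2 was -0.24 ± 0.12 (adjusted p = 0.210). The call of IFITM1 in clone A1 was lost without either WT library or without the clone A1 library of experiment 16.

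GBP2 (chr1:89106132-89126114) is a guanylate-binding protein that attacks intracellular pathogens. Its levels were 1.71 and 0.877 CPM in WT, 1.33 and 1.19 CPM in clone A1, and 0.314 and 0.371 CPM in clone A2, for which the lowest count was 14. The clone A2 libraries were low, while the clone A1 libraries lay between the WT libraries. The log2 fold change was -1.88 ± 0.36 (adjusted p = 0.00193) in clone A2, the largest among the members, and -0.02 ± 0.31 (adjusted p = 0.986) in clone A1. In clone A2 it ranged from -2.31 to -1.35 over the 12 alternatives and was called in each.

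PML (chr15:73994716-74047827) organises nuclear bodies that take part in antiviral defence. It was at 30.8 and 29.1 CPM in WT, 22.7 and 21.8 CPM in clone A1, and 25.4 and 20.5 CPM in clone A2, with no overlap between WT and KO. Its log2 fold change was -0.43 ± 0.11 (adjusted p = 0.0269) in clone A1 and -0.39 ± 0.11 (adjusted p = 0.0253) in clone A2. The 52 other genes within 2.5 Mb of PML on chromosome 15 had medians of -0.21 and -0.22. TRIM14, an adaptor of the mitochondrial antiviral pathway, was at 30.6 and 31.5 CPM in WT, 25.5 and 25.2 CPM in clone A1, and 28.8 and 28.5 CPM in clone A2. The clone A1 libraries were lowest, and the fall of 0.29 ± 0.08 on the log2 scale was called in clone A1 (adjusted p = 0.0285), whereas the value in clone A2 was -0.12 ± 0.08 (adjusted p = 0.344). IFIT5, which binds viral RNA ends, was at 40.2 and 42.1 CPM in WT, 33.6 and 34.7 CPM in clone A1, and 30.6 and 36.0 CPM in clone A2. Both clones were below WT, with log2 fold changes of -0.27 ± 0.09 (adjusted p = 0.0853, and 0.0125 in the fit with the replicate block described below) in clone A1 and -0.30 ± 0.09 (adjusted p = 0.0330) in clone A2. A fit of the libraries of the comparison alone also called IFIT5 in clone A1. The calls of PML and TRIM14 in clone A1 were lost on leaving out any 1 library. In clone A2 that of PML was lost without either WT library or clone A2 of experiment 16, and that of IFIT5 without either WT library, without clone A2 of experiment 15 or with scaling by total counts.

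USP18 (chr22:18150170-18177397) removes ISG15 from proteins and restrains the interferon receptor. It was at 10.6 and 9.9998 CPM in WT, 13.3 and 13.7 CPM in clone A1, and 9.08 and 8.26 CPM in clone A2. The clone A1 libraries were above WT and the clone A2 libraries below it. The log2 fold change was 0.39 ± 0.11 (adjusted p = 0.0322) in clone A1, a call lost on leaving out any 1 library, and -0.25 ± 0.11 (adjusted p = 0.136) in clone A2. USP18 has a near-identical copy, USP41, with which reads could be shared. RIGI (chr9:32455302-32526196), the RIG-I sensor of viral RNA, was at 7.23 and 7.06 CPM in WT, 8.52 and 8.44 CPM in clone A1, and 10.1 and 9.76 CPM in clone A2. All KO libraries lay above WT, and clone A2 above clone A1. The log2 fold change was 0.48 ± 0.12 (adjusted p = 0.00979) in clone A2 and 0.25 ± 0.12 (adjusted p = 0.224) in clone A1. The call in clone A2 was lost on leaving out any 1 of its 4 libraries, with adjusted p up to 0.0814.

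**Figure D2:**
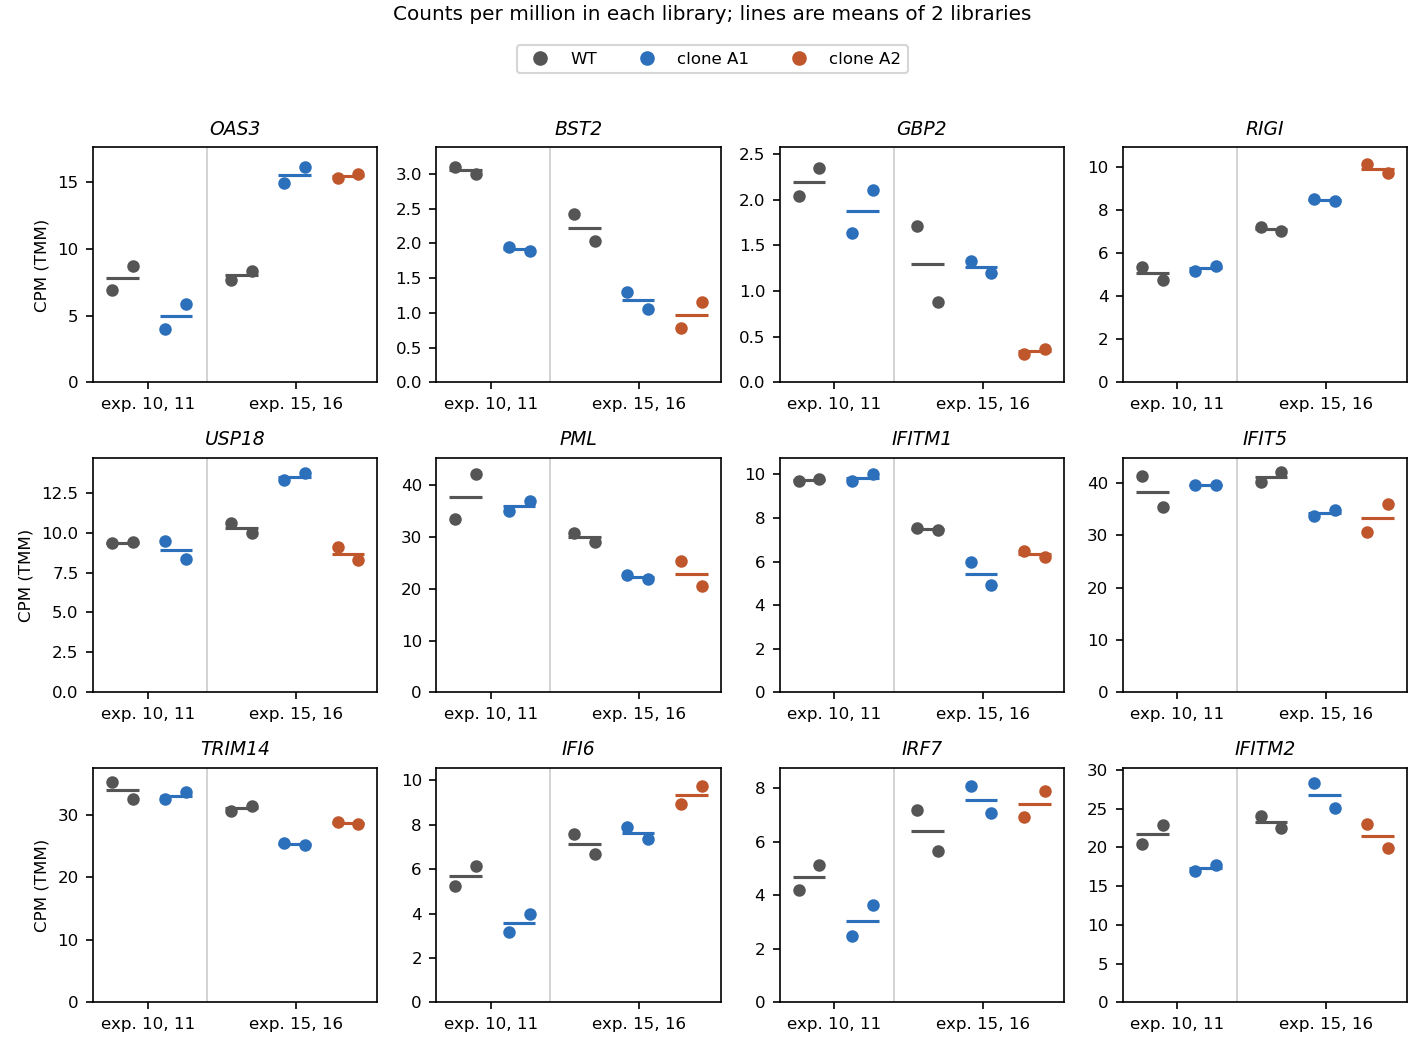
CPM (TMM-scaled, axes from 0) of 12 members in each of the 10 libraries, by experiment pair; lines are means of 2 libraries. OAS3 stands at 14.96 to 16.2 CPM in the 4 KO libraries of experiments 15 and 16 and at 4.04 and 5.85 CPM in clone A1 of experiments 10 and 11, and GBP2 is lowest in clone A2.

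The members not yet described were not called in either clone in the main fit. The replicate block described below called IFI6, IFIT1 and LGALS3BP in clone A2 (adjusted p = 0.0201, 0.0394 and 0.0176). It called 9 members there, and calls over all genes also rose with the block, as given in the closing section. The libraries of the comparison alone called IFI6 and LGALS3BP, and scaling by total counts called IFI6. These members are grouped by role below, with the range of their log2 fold changes in clone A1 and then in clone A2. ISG15, UBE2L6, HERC5 and HERC6 of the ISG15 system lay between -0.43 and 0.11 and between -0.36 and 0.16, with UBE2L6 the lowest in both clones. IFIT1, IFIT2 and IFIT3, of the IFIT family, lay between -0.67 and 0.27 and between -0.54 and 0.54. The membrane proteins IFITM2 and IFITM3, near-identical paralogs between which reads could be split, stood at 0.20 and 0.11 in clone A1 and at -0.12 and -0.17 in clone A2. TRIM21, TRIM25 and SP110 lay between -0.08 and 0.13 and between 0.02 and 0.08, and LGALS3BP stood at -0.10 and -0.19. The 4 members of the PARP and DTX3L group, which act in ADP-ribosylation, lay between 0.04 and 0.17 and between -0.08 and 0.18. The 4 transcription factors, STAT2, IRF1, IRF7 and IRF9, lay between -0.23 and 0.25 and between -0.14 and 0.22. The IFI group (IFI6, IFI27, IFI35, IFI44L, NMI and EPSTI1) lay between -0.59 and 0.76 and between -0.23 and 0.52. The 8 other antiviral effectors (MX1, CMPK2, ISG20, EIF2AK2, SAMD9, GBP2, ZNFX1 and PLSCR1) all had negative values in clone A1, from -0.81 for CMPK2 to -0.02 for GBP2. In clone A2, where GBP2 was called, they had 7 negative values and 1 positive, from -1.88 to 0.14, and in experiments 10 and 11 there were 5 negative and 3 positive. CMPK2, a mitochondrial nucleotide kinase, stood at 1.46 and 1.77 CPM in WT, 1.12 and 0.734 CPM in clone A1 and 1.14 and 1.07 CPM in clone A2, with the KO libraries below WT but the test not passed (adjusted p = 0.121 and 0.235). PSMB9, an immunoproteasome subunit with at most 37 counts in a library, had the highest log2 fold change in clone A1 at 1.00 ± 0.44 (adjusted p = 0.188). Members that were not called had 95% intervals of the log2 fold change with median half-widths of 0.32 (clone A1) and 0.30 (clone A2). Differences smaller than these would usually not have been detectable. The intervals were not adjusted for the number of genes tested, while calls used adjusted p-values, so larger differences could also have been missed. Members that were not called ranged from -0.81 to 1.00 in clone A1 and from -0.55 to 0.66 in clone A2.

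**Figure D3:**
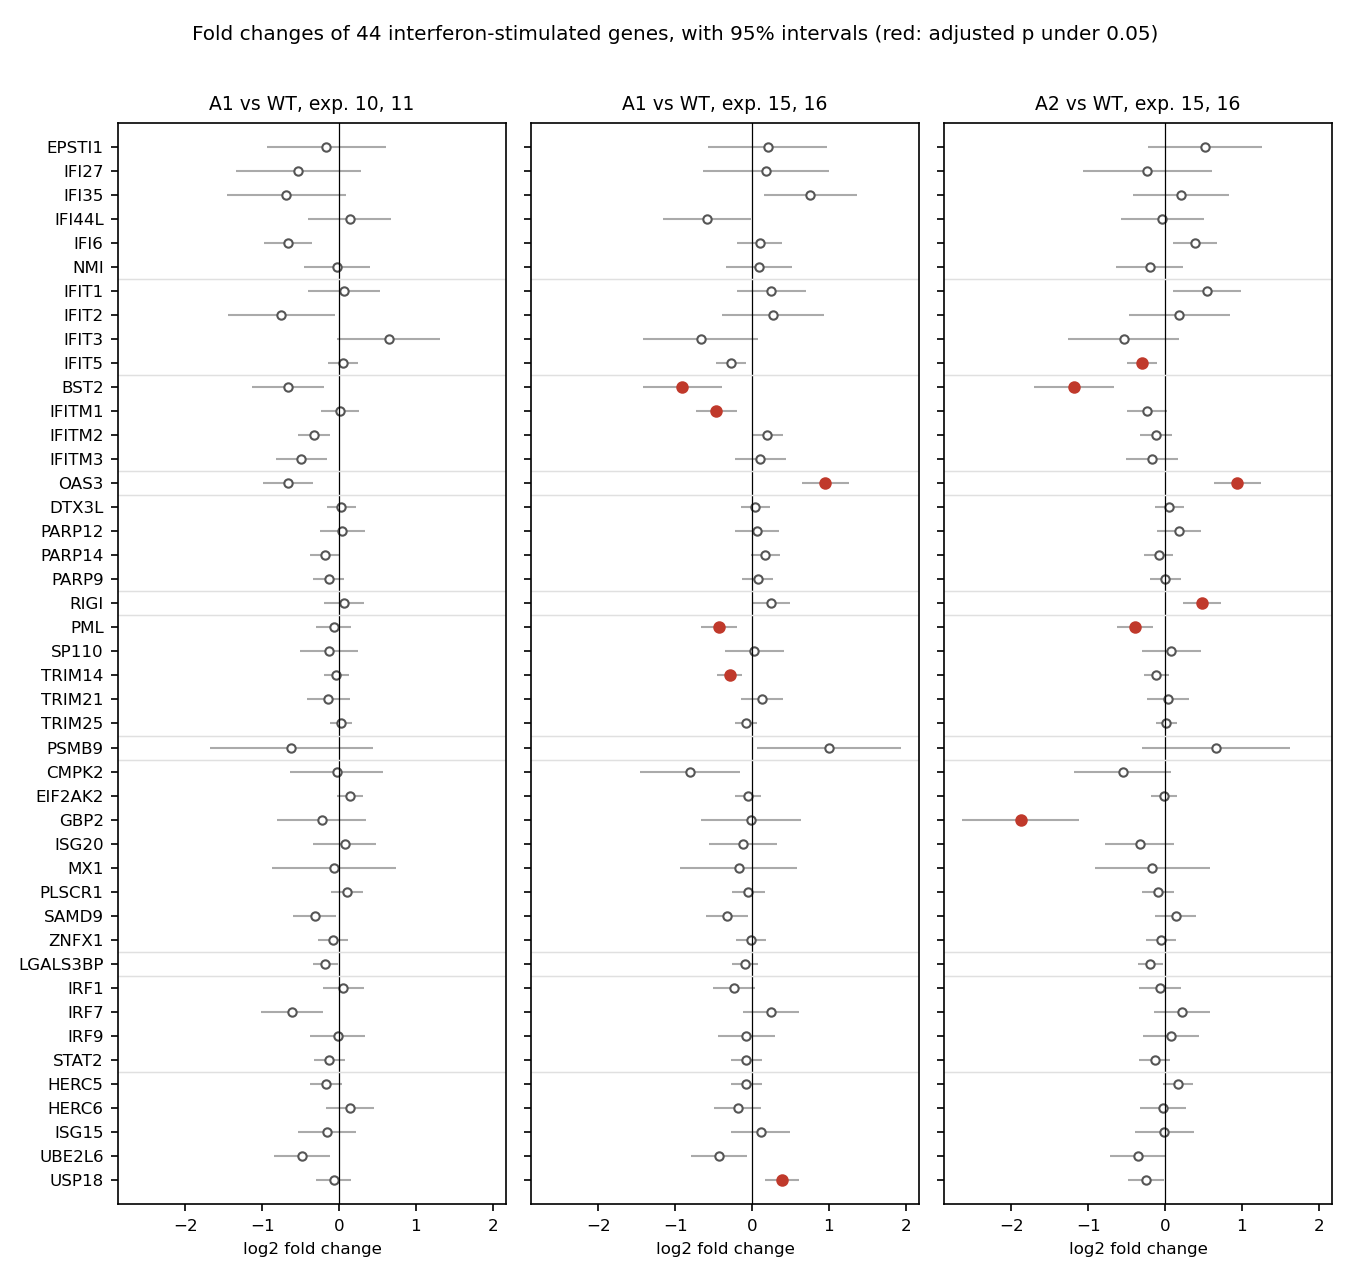
Log2 fold changes of the 44 members in 3 comparisons, grouped by role, with 95% intervals; red points have an adjusted p under 0.05. Clone A1 of experiments 10 and 11 has no red points and 30 of 44 points below 0, and OAS3, BST2 and PML are red in both clones of experiments 15 and 16.

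Between the clones themselves, in experiments 15 and 16, 2 of 44 members (4.55%) were called, beside 4.14% of all genes, and both were lower in clone A2 (3.07% of all genes were called lower and 1.07% higher). GBP2 fell by 1.86 ± 0.36 on the log2 scale from clone A1 to clone A2 (adjusted p = 0.00475), a call lost without the experiment 15 library of either clone. USP18 fell by 0.64 ± 0.11 (adjusted p = 0.00143) and kept its call under all 12 alternatives. The 43 other genes within 2.5 Mb of USP18 on chromosome 22 had a median of -0.49 in the same comparison, and the 17 around GBP2 on chromosome 1 one of -0.06. OAS3 had a log2 difference of -0.01 between the clones, with a 95% interval of -0.30 to 0.28, and BST2 one of -0.27 with an interval of -0.83 to 0.28. DESeq2 also called SAMD9, which was higher in clone A2. The replicate block called 5 members, beside 8.71% of all genes, adding SAMD9, IFITM2 and PARP14 (adjusted p = 0.0143, 0.00866 and 0.0396).

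In experiments 10 and 11, edgeR called 0 of 44 members between clone A1 and WT, and 0.194% of all genes (0.0287% higher and 0.165% lower). At an unadjusted p under 0.05 there were 10 members, all of them lower in clone A1, beside 7.03% of all genes lower at that level. They were IFIT2, IFI6, OAS3, BST2, IRF7, IFITM3, UBE2L6, IFITM2, SAMD9 and LGALS3BP, named after their values were seen. DESeq2 called 2 members, IFI6 and OAS3, beside 0.453% of all genes, and limma-trend 0. The median log2 fold change over the 44 members was -0.10, with 30 negative and 14 positive, beside a median near 0 (-4.37e-04) and 49.9% positive over all genes.

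Libraries of one experiment share its number in the labels, and their deviations from the means of their group and experiment pair correlated weakly, at 0.0844 between WT and clone A1 in experiments 10 and 11. Adding the experiment as a replicate block to the fit called 4 members lower (2.74% of all genes were called in either direction). These were OAS3, IFI6, IFITM2 and IRF7. OAS3 stood at 6.90 and 8.77 CPM in WT and 4.04 and 5.85 CPM in clone A1, with a log2 fold change of -0.67 ± 0.16 (adjusted p = 0.142, and 0.00170 with the block). IFI6, a mitochondrial and endoplasmic reticulum protein that protects infected cells from death, stood at 5.23 and 6.12 CPM in WT and 3.17 and 3.98 CPM in clone A1, with -0.67 ± 0.15 (adjusted p = 0.106, and 0.00838 with the block). In both genes the clone A1 libraries were below both WT libraries. IRF7, the factor that drives transcription of interferon genes, stood at 4.19 and 5.14 CPM in WT and 2.47 and 3.63 CPM in clone A1, with -0.62 ± 0.19 (adjusted p = 0.315, and 0.0318 with the block). IFITM2 stood at 20.5 and 22.9 CPM in WT and 17.0 and 17.7 CPM in clone A1, with -0.32 ± 0.10 (adjusted p = 0.311, and 0.0266 with the block). Again the groups did not overlap in either gene, but the share of all genes without overlap was not counted. Leaving out a library left a single one in its group. Member calls were then most numerous without WT of experiment 10, where calls over all genes were as well, as given in the closing section. BST2 stood at 3.102 and 2.998 CPM in WT and 1.95 and 1.89 CPM in clone A1, a log2 fold change of -0.67 ± 0.22 (adjusted p = 0.349).

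A difference in the clone A1 effect between experiments 10 and 11 and experiments 15 and 16 was called for 1 member, OAS3, beside 2.5% of all genes (1.56% higher and 0.941% lower). Its log2 fold change against WT moved from -0.67 in experiments 10 and 11 to 0.95 in experiments 15 and 16, a change of 1.62 ± 0.21 (adjusted p = 5.21e-04) that was called under all 15 alternatives. The WT level of OAS3 was 6.90 to 8.77 CPM over the 4 experiments, while clone A1 ranged from 4.04 to 16.2 CPM. With the replicate block, 6 members were called, beside 8.96% of all genes. IFI6, IRF7, IFITM2 and PARP14 joined OAS3 with changes of 0.77, 0.87, 0.52 and 0.37 and PML had one of -0.36. Over the 44 members, 17 (38.6%) were lower in clone A1 in experiments 10 and 11 and higher in 15 and 16, beside 23.2% of all genes, and 10 (22.7%) were the reverse, beside 22.2%. A further 13 (29.5%) were lower in both, beside 26.9% of all genes, and 4 (9.09%) were higher in both, beside 27.7%. Without WT of experiment 10, which left a single WT library in its group, more members were called. Calls over all genes also rose there, as given in the closing section.

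**Figure D4:**
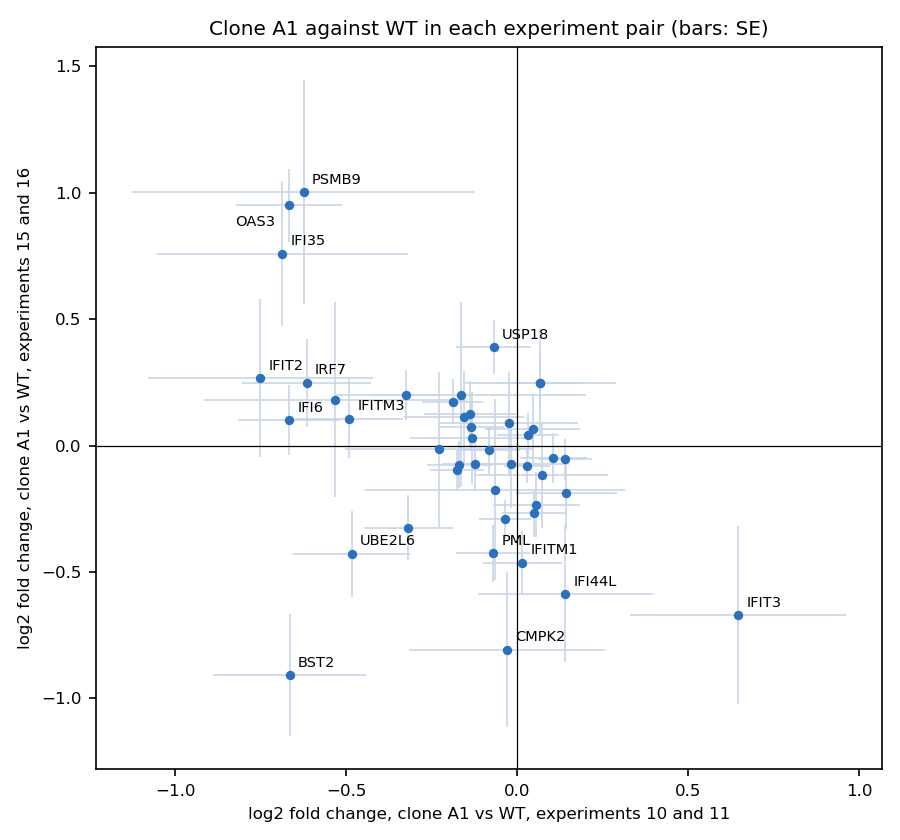
Log2 fold change of clone A1 against WT for the 44 members in experiments 10 and 11 (horizontal) and in experiments 15 and 16 (vertical); bars are standard errors. OAS3 lies at -0.67 and 0.95, and BST2 at -0.67 and -0.91.

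WT spheroids also differed between the experiment pairs. Of 44 members 6 (13.6%) were called between WT of experiments 15 and 16 and WT of experiments 10 and 11, beside 16.4% of all genes, with 3 higher (8.61% of all genes) and 3 lower (7.74%). RIGI was at 5.38 and 4.75 CPM in experiments 10 and 11 and at 7.23 and 7.06 CPM in experiments 15 and 16, a rise of 0.50 ± 0.12 on the log2 scale (adjusted p = 0.0112). HERC6, at 4.71 and 4.59 CPM and then 5.62 and 7.17 CPM, and HERC5, the ligase that attaches ISG15 to proteins, at 15.4 and 17.2 CPM and then 19.01 and 20.8 CPM, rose by 0.47 and 0.29 (adjusted p = 0.0390 and 0.0455), and the 18 other genes within 2.5 Mb of them on chromosome 4 had a median of 0.38. IFITM1 was at 9.72 and 9.77 CPM and then at 7.54 and 7.47 CPM, a fall of 0.38 ± 0.12 on the log2 scale (adjusted p = 0.0391). PML, at 33.5 and 42.1 CPM and then 30.8 and 29.1 CPM, and STAT2, at 36.9 and 43.5 CPM and then 31.3 and 32.9 CPM, fell by 0.34 and 0.32 (adjusted p = 0.0446 and 0.0309). In these members the WT libraries of the experiment pairs did not overlap, but the share of all genes without overlap was not counted. Experiment pair and anything else that changed between these experiments cannot be told apart. Leaving out 1 WT library left a single one in its group. Member calls were then fewest without WT of experiment 16. They were most numerous without WT of experiment 10, where calls over all genes were as well. With all libraries DESeq2 called 4 of the 6, without HERC5 and HERC6, and limma-trend 5, without PML.

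The classical readouts of the pathway were followed in every library, and of these OAS1 was absent from the table. ISG15 stood at 5.47, 7.22, 5.39 and 4.48 CPM in WT of experiments 10, 11, 15 and 16, at 5.78, 5.61, 5.87 and 4.77 CPM in clone A1 and at 5.65 and 4.14 CPM in clone A2. The groups overlapped, and its log2 fold change was 0.11 ± 0.18 in clone A1 and -0.01 ± 0.18 in clone A2 of experiments 15 and 16. IFIT1, which blocks translation of viral RNA, stood at 2.32, 2.49, 3.02 and 3.16 CPM in WT, 2.24, 2.81, 4.55 and 2.80 CPM in clone A1 and 4.60 and 4.43 CPM in clone A2. Clone A2 was above both WT libraries of its experiments at 0.54 ± 0.21 on the log2 scale (adjusted p = 0.0875, and 0.0394 with the block). MX1, a GTPase that traps viral components, stood at 0.651, 0.796, 1.01 and 1.03 CPM in WT, 0.498, 0.892, 0.777 and 1.03 CPM in clone A1 and 1.23 and 0.605 CPM in clone A2, with the groups overlapping. IFI6 stood at 7.59 and 6.69 CPM in WT of experiments 15 and 16, 7.90 and 7.37 CPM in clone A1 and 8.93 and 9.74 CPM in clone A2, where its log2 fold change was 0.39 ± 0.14 (adjusted p = 0.0630, and 0.0201 with the block), and scaling by total counts or fitting the libraries of the comparison alone also called it. Clone A2 was above WT in both of its libraries. IFI27 stood at 0.564, 0.9995, 0.807 and 0.507 CPM in WT, 0.456, 0.631, 0.7996 and 0.666 CPM in clone A1 and 0.404 and 0.683 CPM in clone A2, with no fewer than 18 counts and the groups overlapping.

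Of the complex that binds the response element, STAT2 stood at 35.3, 38.4, 32.6 and 28.5 CPM in clone A1 of experiments 10, 11, 15 and 16 and at 27.6 and 30.7 CPM in clone A2, with log2 fold changes of -0.12 in experiments 10 and 11 and of -0.07 and -0.14 for the clones in experiments 15 and 16. IRF9 stood at 6.03, 6.996, 5.12 and 6.37 CPM in WT, 6.88, 5.98, 6.35 and 4.61 CPM in clone A1 and 6.68 and 5.53 CPM in clone A2, and the groups overlapped.

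Outside the 55, 73 symbols of pathway genes were listed by role, of which C19orf66 is an older symbol of SHFL, also listed, and 54 genes were in the table. Of 8 interferon genes IFNE alone was present, at 0.15 to 0.67 CPM, and all 9 receptor and kinase genes and all 9 sensors and adaptors were present. In clone A1 of experiments 15 and 16, 4 of 54 (7.41%) were called, beside 8.24% of all genes, and all of them fell. They were TYK2, the receptor kinase, at -0.33 ± 0.10 (adjusted p = 0.0434), IRF3, a factor that induces interferon genes, at -0.32 ± 0.09 (0.0427), PIAS1, an inhibitor of STAT signalling, at -0.30 ± 0.07 (0.0137), and TICAM1, the adaptor of TLR3, at -0.38 ± 0.11 (0.0471). DESeq2 and limma-trend called the same 4, but each call was lost on leaving out any 1 of the 4 libraries. With the replicate block 5 fell and 2 rose, beside 17.3% of all genes called. In clone A2, 4 fell and 1 rose (9.26%, beside 16.4% of all genes). TYK2, IRF3 and PIAS1 fell by 0.31, 0.33 and 0.24 on the log2 scale, STING1, the adaptor of cytosolic DNA sensing, fell by 0.40 ± 0.09 (adjusted p = 0.00714), and STAT3 rose by 0.23 ± 0.07 (adjusted p = 0.0383). PIAS1 and STAT3 lost their calls without any 1 of the 4 libraries, and TYK2, IRF3 and PIAS1 also with scaling by total counts. TYK2 lost its call without either WT library or clone A2 of experiment 16, IRF3 without WT of experiment 15 or clone A2 of experiment 16, and STING1 without WT or clone A2 of experiment 15. STING1 was also lower in clone A2 than in clone A1, by -0.46 ± 0.09 (adjusted p = 0.00537), a call lost without the experiment 15 library of either clone. The neighbouring genes of TYK2, IRF3 and PIAS1 within 2.5 Mb had medians of -0.19, -0.20 and -0.26 in clone A1 and -0.15, -0.21 and -0.29 in clone A2. Those of TICAM1 had a median of -0.20 in clone A1, and those of STING1 and STAT3 had medians of -0.01 and 0.01 in clone A2. In experiments 10 and 11 edgeR, DESeq2 and limma-trend each called 0 of the 54 between clone A1 and WT (4, or 7.41%, at an unadjusted p under 0.05 with edgeR, beside 10.6% of all genes), and the replicate block called 1, OGFR, lower. Between the experiment pairs of WT, 5 rose and 5 fell (18.5%, beside 16.4% of all genes). Those that rose were IFIH1, the MDA5 sensor of viral RNA, by 0.95 ± 0.30 (adjusted p = 0.0415), the transcription factor IRF2 by 0.49, NUB1 by 0.32, the interferon gamma receptor chain IFNGR1 by 0.31 and the aminopeptidase LAP3 by 0.29. Those that fell were IKBKE, an interferon-inducing kinase, at -0.83 ± 0.25 (adjusted p = 0.0344), TYK2 at -0.39, the interferon lambda receptor chain IFNLR1 at -0.31, the RIGI adaptor MAVS at -0.31 and IRF3 at -0.29. TYK2 and IRF3 were thus lower in WT of experiments 15 and 16 than in WT of experiments 10 and 11. They were lower again in both clones than in WT of experiments 15 and 16, which both comparisons share. NUB1 kept its call in 9 of 10 alternatives, MAVS, LAP3 and TYK2 in 8, and IFNGR1, IFNLR1, IRF2 and IRF3 in 7, each losing it only where a WT library was left out. The genes within 2.5 Mb had medians in the direction of the call, at 0.29 around LAP3, 0.35 around IRF2, 0.27 around IFIH1, 0.14 around NUB1, 0.06 around IFNGR1, -0.17 around TYK2, -0.21 around IRF3, -0.12 around IKBKE and -0.05 around MAVS, with IFNLR1 the exception at 0.03. DESeq2 called ADAR in place of IFIH1, with 4 higher and 6 lower. IFIH1 was also not called in the libraries of the comparison alone or without any 1 of the 4 WT libraries, and IKBKE was not called without WT of experiment 11, 15 or 16. For the other called members the neighbours within 2.5 Mb had medians of 0.02 and 0.05 around OAS3 (33 genes, clones A1 and A2), -0.19 and -0.12 around BST2 (102 genes), -0.02 around GBP2 in clone A2 (17 genes) and 0.02 around RIGI in clone A2 (34 genes). In clone A1 they were 0.13 around USP18 (43 genes), 0.02 around IFITM1 (43 genes) and 0.08 around TRIM14 (35 genes), and in clone A2 -0.12 around IFIT5 (26 genes). The part of the neighbourhood in these values was not tested.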

How the data were processed

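The deposited values were whole read counts per NCBI gene without normalization, which the authors made from stranded mRNA libraries aligned to GRCh38 with HISAT2. The submitters' processing notes also name StringTie. The counting program and its strand setting were not given in the sources used here, so overlapping genes such as PARP9 and DTX3L are uncertain. The authors removed genes with a count of 0 in any library, so levels near 0 could not be followed.

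The test was the robust quasi-likelihood test of edgeR 4.0.16 (R 4.3.3, TMM) in 1 fit of 10 libraries and 5 groups with 5 residual degrees of freedom, with Benjamini-Hochberg adjustment over 13920 genes. Alternatives were DESeq2 1.42.0, limma-trend 3.58.1 (prior count 2), RLE or total count scaling, a mean count of at least 10, the libraries of the comparison only, the replicate block and each library left out. The edgeR, DESeq2 and limma fits were tested on simulated data. Members and lists were chosen with earlier results of these data known. Every member was accounted for by role, 8 classical readouts were given in every library where in the table, called members in the libraries of the comparison that called them, and called pathway genes were named, up to 5 a direction. Overlap between libraries is a description of the named genes, and the share of all genes without overlap was not counted.

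The study's methods call the samples biological replicates, the labels do not say whether they were separate cultures, and p-values measure the spread between these libraries. The labels give WT and clones of an experiment a shared number, which is where the replicate block comes from. After means of group and experiment pair were removed, libraries with the same number correlated weakly: WT and clone A1 at 0.0844 and 0.134, WT and clone A2 at 0.151, and the clones at 0.103. After group means alone, WT and clone A1 correlated at 0.468 to 0.526, which includes the difference between the experiment pairs that the fit models, and clone A2 with either at 0.0080 to 0.159.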

Additional observations from a re-analysis of the deposited data

Results flagged for a closer look

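The effects of the 2 clones differed, by the test of clone A2 against clone A1, for GBP2 (-1.86 on the log2 scale) and USP18 (-0.64). The effect of clone A1 on OAS3 differed between the experiment pairs by 1.62 on the log2 scale. Over the 4 WT libraries UBE2L6, the enzyme that carries ISG15 to its targets, stood apart in experiment 10 at 4.58 CPM, with the others between 5.07 and 5.12 CPM. Over the 4 clone A1 libraries ZNFX1, a helicase that senses viral RNA, stood apart in experiment 10 at 22.8 CPM, with the others between 19.4 and 19.5 CPM. These were 2 of 88 groups of 4 libraries examined (2.27%), where chance sets apart about 1 in 20.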

How the results depend on the processing

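Leaving out 1 library gave 1 to 2 member calls in place of 6 for clone A1 in experiments 15 and 16, 3 to 4 in place of 6 for clone A2 against WT, 1 to 2 in place of 2 between the clones, 0 to 6 in place of 0 for clone A1 in experiments 10 and 11, 1 to 7 in place of 1 for the change of the clone A1 effect and 0 to 5 in place of 6 between WT of the experiment pairs. The count of 10 members lower at an unadjusted p under 0.05 in experiments 10 and 11, chosen after the data were seen, became 6 to 13.

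With the replicate block there were 5 calls between the clones, 4 for clone A1 in experiments 10 and 11 and 6 for the change of its effect. In clone A1 of experiments 15 and 16 it added IFIT5 and changed no other member call, in clone A2 it added IFI6, IFIT1 and LGALS3BP, and between the clones SAMD9, IFITM2 and PARP14. The paired fit could not be made for WT between the experiment pairs. The experiment pair alone with the block, also chosen after the data were seen, gave 6 calls between the clones and 2 in experiments 10 and 11. The libraries of the comparison alone gave 4 calls between the clones. In experiments 15 and 16 they added IFIT5 in clone A1 and IFI6 and LGALS3BP in clone A2. DESeq2 gave 2 calls in experiments 10 and 11 and 3 for the change of effect. Over all genes the block moved the calls from 1147 to 2411 (clone A1) and 2283 to 3673 (clone A2) in experiments 15 and 16, 576 to 1213 between the clones, 27 to 382 in experiments 10 and 11 and 348 to 1247 for the change. DESeq2 called 63 genes in experiments 10 and 11 and 533 for the change. The libraries of the comparison alone gave 1834 calls for clone A1 in experiments 15 and 16 and 12 in experiments 10 and 11. The experiment pair alone with the block gave 3237 and 4511 for clones A1 and A2, 1947 between the clones and 229 in experiments 10 and 11. Leaving out 1 library gave 343 to 495 and 1020 to 1315 for clones A1 and A2, 268 to 391 between the clones, 7 to 1361 in experiments 10 and 11, 88 to 1123 for the change and 820 to 3658 in place of 2276 for WT, with the most in the last 3 without WT of experiment 10.

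Of 243 values of called members under alternatives, 184 kept their call, 59 lost it and 0 changed sign, and of 220 values of called pathway genes 156 kept it, 64 lost it and 0 changed sign. The cause of these changes was not tested. GBP2, PSMB9, EPSTI1, IFI27 and IFI35 had under 20 counts in a library.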
